A study of Mus musculus with 6 samples.

Results

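Caps2 and 9 genes of motile cilia were followed in the sciatic nerves of Dok6 mutant mice, to see whether the lower Caps2 of the mutant libraries was shared by genes of ciliated cells. These 10 genes are among 54532 genes with a deposited read count. Caps2 was chosen by its own lower counts in the mutants, so its difference between the genotypes is described here and not tested. Foxj1, Rsph1, Rsph4a, Ccdc153, Tmem212, Ccdc39, Ccdc40, Dnah5 and Dnah12 were chosen for their role in motile cilia or in ependymal cells, and their differences were tested. RNA was sequenced from 3 control mice, labelled WT, and 3 mutant mice, labelled Dok6 KO, at postnatal day 3, with 1 library per mouse. All were on a C57BL/6 background, sexes were not told apart, and the controls are described as littermates, with no record of which mouse came from which litter. The mutants carry a conventional deletion made by crossing mice with a floxed Dok6 exon 3 to EIIA-cre mice, whose recombinase acts in the early embryo, so that the deletion is carried by the whole body and not by a chosen cell type. Dok6 is the gene of an adaptor protein of neurotrophin receptors. It stood at 17.8, 11.9 and 17.5 CPM in the controls and at 7.26, 5.78 and 7.15 CPM in the mutants, without overlap. These are counts of the whole gene, and the exons on which the reads lie are not given. CPM are counts divided by the library total in M counts, after scaling by the TMM factors of edgeR.

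A motile cilium beats because rows of axonemal dynein, the outer and inner arms, slide the paired microtubules of its core against each other. Radial spokes and the central pair set the rhythm, a coiled-coil pair of proteins sets the spacing of the arms, and the nexin-dynein regulatory complex turns sliding into bending. The forkhead factor FOXJ1 and the RFX factors switch these genes on together in cells that bear motile cilia, such as the ependymal cells of the brain ventricles and of the central canal of the spinal cord. Most other cells carry a primary cilium, a single immotile antenna built by the same intraflagellar transport but without the dynein arms.

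The name CAPS2 is in use for a pair of unrelated genes. Caps2 itself encodes calcyphosine 2, a protein with EF-hand calcium-binding motifs. Cadps2, on chromosome 6, encodes calcium-dependent activator protein for secretion 2, which serves the release of dense-core vesicles and is also called CAPS2. The study lists a pair of quantitative PCR primers under the name CAPS2, and they are shown because their letters tell which gene they read. Both are printed 5′ to 3′, and the capitals mark bases that match Cadps2 without a mismatch, which is the whole of each primer.
CAPS2-F: TACTGCTTTCCCTTCGGACG
CAPS2-R: TCTGCGGGCCCTTCTATTTT
Among all transcripts of GENCODE M21, the forward primer matched 8 transcripts exactly and the reverse primer 5, and every one of them was a transcript of Cadps2. Both primers lay in 5 of the 13 Cadps2 transcripts, where they enclose a product of 197 bases. Against the 3 transcripts of Caps2, the best placements left 6 mismatches for the forward and 7 for the reverse primer. The forward primer lies in coding sequence of exon 15 of 30 of ENSMUST00000018122 at chr6:23385510-23385529 (GRCm38, minus strand), and the reverse primer spans the junction of exons 16 and 17. In these libraries the 2 genes therefore have to be read separately, and both are given here.

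Promoter sequence was at hand for 7 of the 10 genes, as the 250 bases before the RefSeq start (GRCm38.p6). It was searched on both strands for GTTGCC, the core of the X-box that RFX factors bind, for the wider X-box (GTTNCC, then 2 bases, then GNNAAC), which can overlap that core, and for the forkhead motif GTAAACA. Ccdc153 and Caps2 are shown, the former as the only promoter of the 7 with a match and the latter as the gene that was lower in the mutants. Capitals mark the X-box match.
Ccdc153, chr9:44240427-44240676, plus strand: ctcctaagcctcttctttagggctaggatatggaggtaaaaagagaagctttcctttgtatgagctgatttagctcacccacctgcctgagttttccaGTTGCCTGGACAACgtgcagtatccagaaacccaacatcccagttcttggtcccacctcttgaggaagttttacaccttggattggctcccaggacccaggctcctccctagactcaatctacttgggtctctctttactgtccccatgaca
Caps2, chr10:112165426-112165675, plus strand: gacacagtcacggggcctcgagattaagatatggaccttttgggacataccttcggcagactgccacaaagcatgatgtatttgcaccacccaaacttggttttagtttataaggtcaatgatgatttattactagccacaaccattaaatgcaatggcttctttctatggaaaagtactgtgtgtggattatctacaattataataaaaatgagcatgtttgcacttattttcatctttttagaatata
The core was present in 10.4% of 32817 promoters of this length, the wider X-box in 0.567% and the forkhead motif in 3.16%. None of the 7 promoters held the forkhead motif, which says only that these letters are not in these windows. The RefSeq start of Caps2 is that of its shorter coding transcript, ENSMUST00000170013, and lies 2055 bases inside the GENCODE gene.

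The 6 libraries held between 17699904 and 18678170 counts, so that 3 counts, the smallest level taken as detectable, were 0.156 to 0.172 CPM. That limit is one of counting error alone. A filter on low counts (filterByExpr of edgeR) left 17099 genes with a biological coefficient of variation of 16.6%. In a sample of nerve, fewer cells of a type and less RNA per cell cannot be told apart. The libraries held more than the sciatic nerve is known for, and markers of several cell types differed between the genotypes in edgeR's quasi-likelihood test, which called 8.62% of the 17099 genes higher and 6.01% lower in the mutants (adjusted p under 0.05). The 12 markers of spinal cord neurons, whose cell bodies do not lie in the nerve, summed to 1240 to 1420 CPM in the controls and 1030 to 1170 CPM in the mutants, without overlap, and none of them was at 0. Of these 12, 2 were called lower (Slc32a1, -0.32 on the log2 scale, adjusted p = 0.0487, and Pax2, -0.62, adjusted p = 0.0287) and 0 higher. Markers of central glia (11 genes, Gfap, Aqp4 and Olig2 among them) summed to 1370 to 2250 CPM in the controls and 1360 to 2910 CPM in the mutants, with 0 of 11 called. Of 9 Schwann cell markers 6 were called higher, with sums of 172 to 808 CPM in the controls and 447 to 2390 CPM in the mutants. Skeletal muscle markers summed to 17.5 to 26.9 CPM and 121 to 648 CPM, with all 9 tested genes higher. Sensory neuron markers summed to 229 to 272 CPM and 428 to 1080 CPM, with 10 of 12 higher. Markers of the choroid plexus, another ciliated tissue of the brain, summed to 3.16 to 5.2 CPM and 5.19 to 7.37 CPM, with Otx2 at 0 in every library. The part these cell types have in the values below was not tested.

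Caps2 (ENSMUSG00000035694, chr10:112163621-112216555, plus strand) was a rare transcript in every library. It was counted 28, 19 and 29 times in the controls and 8, 6 and 5 times in the mutants. On the CPM scale these counts are 1.61, 1.09 and 1.66 in the controls and 0.415, 0.327 and 0.265 in the mutants. The groups did not overlap, and the highest mutant lay well below the lowest control. The mean was 1.45 ± 0.315 CPM in the controls and 0.336 ± 0.0754 CPM in the mutants (SD, n = 3). The fold change fitted by edgeR was -2.09 on the log2 scale with a standard error of 0.38, or 4.25-fold lower. Since these values chose the gene, no p-value is given. Caps2 passed the filter through the controls alone, because 10 counts at the median library, 0.553 CPM, were reached by all 3 controls and by 0 of 3 mutants. The difference rests on 76 counts against 19. Without any 1 library it lay between -1.95 and -2.27.

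Some of these reads could belong elsewhere. The GENCODE gene has 3422 exonic bases in 3 transcripts. The coding transcripts, of 2838 and 2321 bases, share a stretch of 482 bases at 95% identity or more with the pseudogene Gm7269, which had 3, 2 and 1 counts in the controls and 2, 0 and 0 in the mutants. The non-coding transcript ENSMUST00000132994 opens with an exon of 404 bases, chr10:112172540-112172943, and 38 other genes have a transcript that matches at least 200 bases of that exon at 95% identity or more. That exon is 11.8% of the exonic bases, and the count it received is uncertain because the treatment of reads with several matches is not given in the sources used here.

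**Figure D1:**
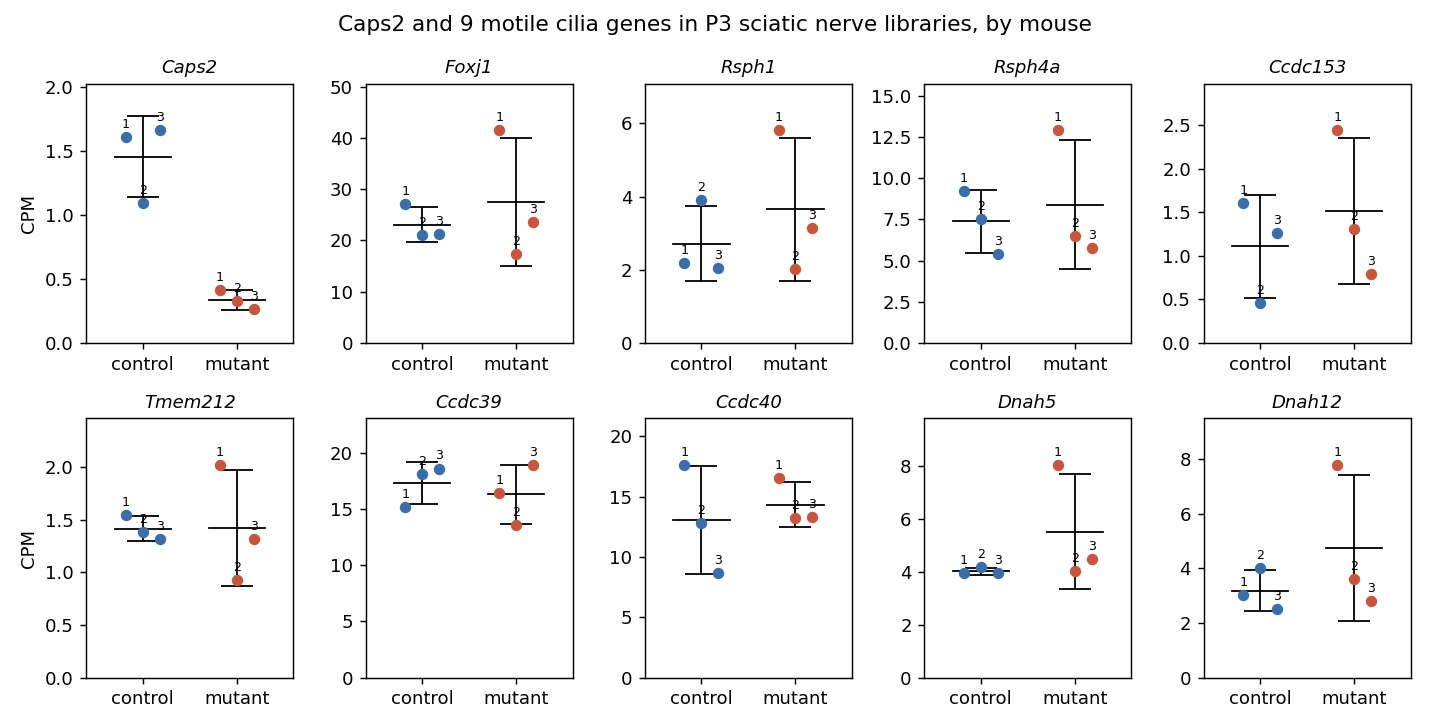
CPM of the 10 genes in each of 3 control and 3 Dok6 mutant mice, with a linear axis from 0 for each gene, points numbered by mouse, and lines and bars for the mean and SD. Only for Caps2, which was chosen by its lower counts in the mutants, do the groups not overlap (lowest control 1.09, highest mutant 0.415). Of all genes tested, 19.6% have every mutant above every control and 18.7% below. In 7 of the 9 other genes mutant mouse 1 is the highest library.

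The 9 genes of motile cilia did not share this fall. By the quasi-likelihood test of edgeR with Benjamini-Hochberg adjusted p-values, 0 of 9 were called higher and 0 of 9 lower, beside the 8.62% of all genes tested that were called higher and the 6.01% called lower. None had an unadjusted p under 0.05, DESeq2 called 0 of 9 as well, and the lowest adjusted p was 0.285. For 8 of the 9 the estimate was above 0 and for 1 below, with a median of 0.25 on the log2 scale beside 0.01 for all genes. Without mutant mouse 1, 3 were above 0 and 6 below, with a median of -0.08. The lowest of the 9 lower bounds of the 95% intervals was -0.78, so that a fall as large as that of Caps2 lay outside all 9 intervals. The upper bounds reached 1.67.

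The regulator Foxj1 (ENSMUSG00000034227, chr11:116330704-116335399, minus strand), the master transcription factor of the motile cilium, had 318 to 800 counts per library. It stood at 27.1, 21.0 and 21.2 CPM in the controls and at 41.5, 17.3 and 23.7 CPM in the mutants. Mutant mouse 1 was the highest of the 6 libraries and mutant mouse 2 the lowest. The log2 fold change was 0.25 with a 95% interval of -0.39 to 0.90 (edgeR, adjusted p = 0.564).

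The radial spoke genes were spread in the same manner. Rsph1 (ENSMUSG00000024033, chr17:31255019-31277383, minus strand), a protein of the spoke head, was at 2.18, 3.90 and 2.06 CPM in the controls and 5.81, 2.02 and 3.13 CPM in the mutants. Rsph4a (ENSMUSG00000039552, chr10:33905111-33916021, plus strand), another protein of the spoke head, was at 9.24, 7.51 and 5.38 CPM and at 12.9, 6.49 and 5.78 CPM. The groups overlapped for both genes, and mutant mouse 1 was again the highest library. The log2 fold changes were 0.43 (-0.52 to 1.38, adjusted p = 0.504 by edgeR) and 0.18 (-0.56 to 0.93, adjusted p = 0.726).

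Ccdc39 and Ccdc40, which form the coiled-coil ruler on which the inner arms and the nexin-dynein complex are placed, were the 2 of the 9 genes whose highest library was not mutant mouse 1. Ccdc39 (ENSMUSG00000027676, chr3:33812362-33844310, minus strand) was at 15.2, 18.1 and 18.6 CPM in the controls and 16.4, 13.6 and 18.9 CPM in the mutants. Its exons overlap those of Ttc14 on the other strand, with 842 bases in common, so its count is uncertain unless strand was used in counting, which the sources used here do not give. Ccdc40 (ENSMUSG00000039963, chr11:119228572-119265238, plus strand) was at 17.6, 12.8 and 8.69 CPM and at 16.5, 13.2 and 13.3 CPM. The 3 mutant values of Ccdc40 lay within the range of the controls. The log2 fold change was -0.08 for Ccdc39 (-0.44 to 0.27, adjusted p = 0.738 by edgeR), the only estimate below 0, and 0.14 for Ccdc40 (-0.41 to 0.69, adjusted p = 0.722).

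Of the dynein heavy chains, Dnah5 (ENSMUSG00000022262, chr15:28203752-28472052, plus strand) is a motor of the outer arm and Dnah12 (ENSMUSG00000021879, chr14:26693274-26891703, plus strand) of the inner arm. Dnah5 was at 3.96, 4.18 and 3.95 CPM in the controls and 8.04, 4.04 and 4.50 CPM in the mutants. Dnah12 was at 3.04, 4.01 and 2.52 CPM in the controls and 7.78, 3.60 and 2.81 CPM in the mutants. In both, mutant mouse 1 stood apart and the other mutants lay among or close to the controls. These genes had the largest estimates of the 9, 0.46 for Dnah5 (-0.18 to 1.09, adjusted p = 0.285 by edgeR) and 0.57 for Dnah12 (-0.32 to 1.45, adjusted p = 0.338). Without mutant mouse 1 they were 0.08 and 0.01.

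Ccdc153 and Tmem212 are best known as markers of ependymal cells. Ccdc153 (ENSMUSG00000070306, chr9:44240676-44247306, plus strand), whose promoter holds the X-box printed above, was at 1.61, 0.459 and 1.26 CPM in the controls and 2.44, 1.31 and 0.795 CPM in the mutants. Tmem212 (ENSMUSG00000043164, chr3:27866066-27896368, minus strand) was at 1.55, 1.38 and 1.32 CPM and at 2.02, 0.927 and 1.32 CPM. Both had about as few counts as Caps2 in the controls, and the groups overlapped for both as they did for the genes with more counts. The log2 fold changes were 0.45 (-0.77 to 1.67, adjusted p = 0.589 by edgeR) and 0.01 (-0.78 to 0.81, adjusted p = 0.982).

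**Figure D2:**
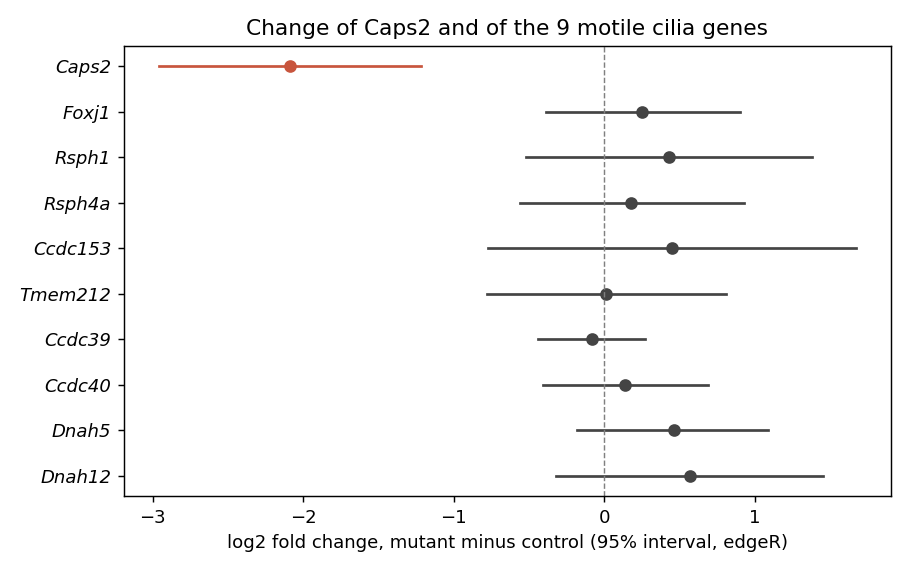
Log2 fold change (mutant minus control) of each gene from edgeR, with points for the estimate and lines for the unadjusted 95% interval. Caps2 (-2.09), which was chosen by this contrast, lies left of all 9 intervals of the motile cilia genes, each of which spans 0.

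Per kb of the deposited gene length, Caps2 was near the bottom of the order in the controls. For Caps2 that length is all 3422 exonic bases of the gene and not the length of a single transcript. Foxj1 was the most abundant at 8.81 ± 1.31 CPM per kb (SD, n = 3), and its range did not overlap that of the next gene. Rsph1, Ccdc39, Ccdc40, Rsph4a and Tmem212 followed between 2.33 and 1.97 CPM per kb, with neighbours whose ranges overlapped. A gap without overlap separated Tmem212 from the last 4 genes. These were Ccdc153 (0.544 CPM per kb), Caps2 (0.424), Dnah12 (0.266) and Dnah5 (0.258), and among them each range overlapped that of its neighbour.

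The share of Caps2 beside the cilia genes was lower in every mutant than in every control. The 9 genes together were at 81.4, 73.4 and 65.0 CPM in the controls and at 113, 62.5 and 74.3 CPM in the mutants, a mean of 73.3 ± 8.23 CPM against 83.4 ± 26.6 CPM (SD, n = 3). For every 1000 counts of these 9 genes, Caps2 had 19.7, 14.8 and 25.5 counts in the controls and 3.66, 5.24 and 3.57 counts in the mutants. This ratio did not overlap between the groups and was 20.0 ± 5.35 against 4.15 ± 0.938. It uses the Caps2 counts that chose the gene and has no test.

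Among themselves 8 of the 9 genes tended to be high and low in the same libraries, with mutant mouse 1 the highest for 7 of them. Of the 36 pairs that the 9 genes form, 32 had a Pearson r above 0 over the 6 libraries, with a median of 0.57 and a range of -0.48 to 0.95 (log2 CPM with a prior count of 2). Ccdc39 was the exception, with a median r of -0.10 with the other genes, against 0.42 to 0.76 for the rest. The r of each gene with Caps2 lay between -0.42 for Dnah5 and 0.18 for Ccdc39, but Caps2 was chosen for a profile that follows the genotype, so that these r values are no contrast with the 9. All of these values share the same 6 libraries and their genotypes, and they are given as a description.

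Mutant mouse 1 stood apart from the other mutants for most of these genes. It was the highest library for 7 of the 9 genes, whereas 16.7% of all genes tested had their highest value there, and the level in mutant mouse 1 was 1.8 to 2.43 times the mean of the other mutants in those 7. Without this library, 5 of the estimates changed sign, to -0.17 for Foxj1, -0.07 for Rsph1, -0.27 for Rsph4a, -0.08 for Ccdc153 and -0.32 for Tmem212, and none was called. Caps2 without the same library was at -2.27. In mutant mouse 1 the skeletal muscle markers summed to 648 CPM, the highest of the 6 libraries, while the central glia markers (2656 CPM) were highest in mutant mouse 2 (2909 CPM), and the part of either in the cilia genes was not tested.

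A wider list of 117 motile cilia genes was read in the same way. Of these, 104 passed the filter, 13 did not, and 2 of the latter had no count. EdgeR's quasi-likelihood test called 0 of 104 higher and 0 of 104 lower. At an unadjusted p under 0.05 there were 8 higher and 1 lower of the 104, where all genes tested gave 18% and 15.5%. DESeq2 called 2 higher and 0 lower, where it called 10.4% of all its genes tested higher and 8.36% lower. The estimates were above 0 for 76 genes and below 0 for 28, from -0.94 to 1.66, with a median of 0.19 against 0.01 for all genes tested. Every mutant lay above every control for 11 of the 104 and below for 1, where all genes tested gave 19.6% and 18.7%. The highest library was mutant mouse 1 for 67 genes, or 64.4%, and without that mouse the median of the list was -0.08. None of the 104 had an estimate below -0.94, where that of Caps2 was -2.09.

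By role, the dynein arms and the regulators had the highest medians. All 9 outer arm genes tested and all 6 regulators had estimates above 0, with medians of 0.36 and 0.30, and 8 of the 9 outer arm genes were highest in mutant mouse 1. Inner arm genes had a median of 0.22 (8 of 10 above 0), central pair genes 0.20 (9 of 11), radial spoke genes 0.12 (7 of 11) and other genes of the axoneme 0.17 (29 of 43). Genes of dynein assembly (median 0.02, 4 of 6 above 0) and of the nexin-dynein regulatory complex (median 0.01, 4 of 8 above 0) had the lowest medians. Since none of these genes was called, the values describe estimates only. They include mutant mouse 1, without which the median of the whole list was -0.08.

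The genes closest to a call on the list were chosen after their values were seen. Stk36, a kinase of the fused family needed for the central pair, was at 11.4, 10.3 and 6.81 CPM in the controls and 17.0, 13.1 and 16.6 CPM in the mutants, with an adjusted p of 0.0533 in edgeR and 0.0147 in DESeq2. Mns1, a filament protein inside the microtubule doublets, was at 2.75, 4.13 and 2.63 CPM and at 5.86, 5.07 and 5.40 CPM, with an adjusted p of 0.0541 in edgeR and 0.0496 in DESeq2. Neither gene overlapped between the groups, with log2 fold changes of 0.71 and 0.78, and these were the 2 genes that DESeq2 called. Ropn1l of the radial spoke had the highest estimate, 1.66 (adjusted p = 0.0858, edgeR), on 0.324 ± 0.216 CPM in the controls and 1.04 ± 0.513 CPM in the mutants. Tekt4, a tektin of the axoneme, had the lowest at -0.94 (adjusted p = 0.108), and its value in mutant mouse 1, 2.96 CPM, lay above that of control mouse 3, 2.69 CPM.

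The 6 genes of the list with the highest mean CPM, which depends on length as well as on level, were not called. Dnal1, a light chain of the outer arm, was at 39.6, 40.8 and 42.8 CPM in the controls and 48.9, 52.7 and 45.1 CPM in the mutants, without overlap, and its log2 fold change of 0.25 had an adjusted p of 0.101 (edgeR). Rfx3 (0.32), Cfap69 (0.20), Spef1 (0.05), Gas8 (-0.14) and Dnah2 (0.27) followed, with adjusted p from 0.209 for Rfx3 to 0.844 for Spef1. Rfx3, a factor that binds the X-box, ranged from 25.4 to 39.5 CPM in the controls and from 38.5 to 44.6 CPM in the mutants.

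**Figure D3:**
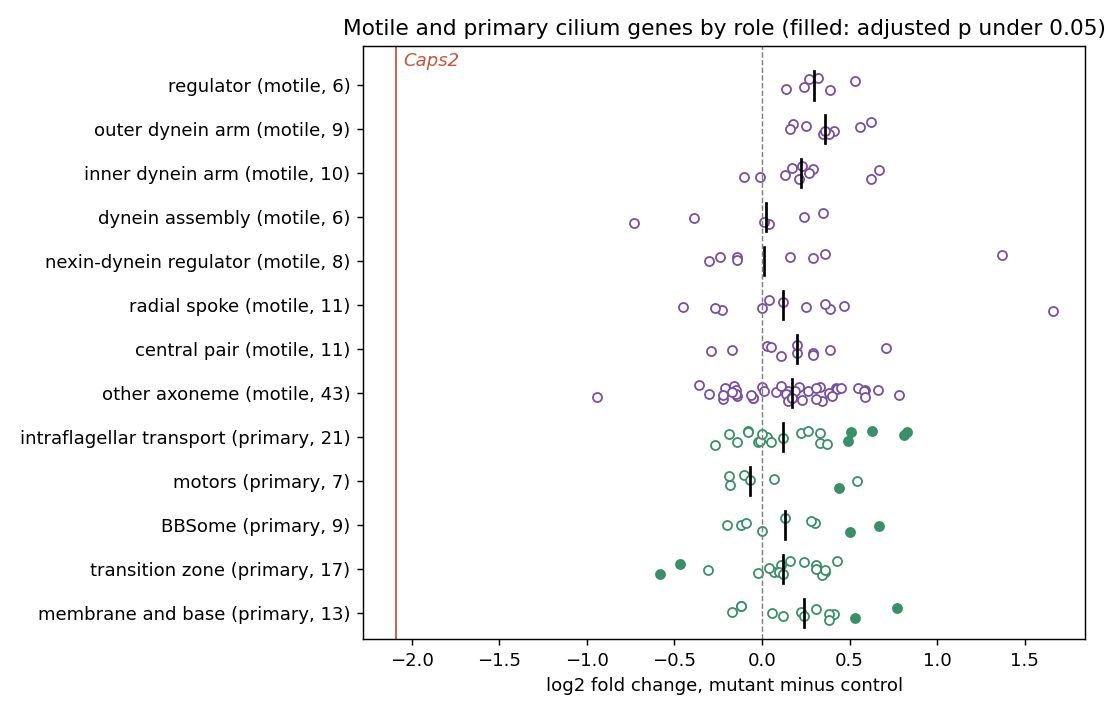
Log2 fold change (mutant minus control, edgeR) of 104 motile and 67 primary cilium genes tested, in rows by role with the number of genes, 1 point per gene and a black line for the median. Filled points have an adjusted p under 0.05 and occur only among primary cilium genes (10 higher, 2 lower). The vertical line of Caps2, which was chosen by this contrast, lies at -2.09, left of every point. Intervals are not drawn.

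Some genes of the primary cilium passed the test. All 67 genes of the list passed the filter. EdgeR's quasi-likelihood test called 10 of them higher (14.9%, against 8.62% of all genes tested) and 2 lower (2.99%, against 6.01%), with a median log2 fold change of 0.12. DESeq2 called 12 higher and 2 lower, beside 10.4% and 8.36% of all its genes tested. Leaving out 1 mouse changed the calls of this list and of all genes tested. Without control mouse 2 the counts higher and lower were 0 and 0 (0.318% and 0.0682% of all genes tested). They were 9 and 1 without control mouse 1 (5.56% and 3.58%) and 6 and 2 without control mouse 3 (5.72% and 3.53%). Without mutant mouse 1 they were 4 and 1 (3.99% and 1.11%), and without mutant mouse 2 they were 2 and 0 (3.16% and 1%). Without mutant mouse 3 they were 10 and 3 (9.59% and 7.08%). The 12 estimates kept their direction in each. The difference between the lists was not tested. Ift43, a subunit of the intraflagellar transport A complex, was at 3.90, 3.21 and 3.03 CPM in the controls and 6.17, 6.60 and 5.25 CPM in the mutants, and it rose by 0.83 on the log2 scale with a standard error of 0.20 (adjusted p = 0.0303). Ttc21b, another subunit of that complex, rose from 8.21 ± 0.503 to 14.4 ± 0.645 CPM (log2 fold change 0.81, adjusted p = 0.0123). Invs, whose product inversin sits at the base of the cilium, rose from 6.36 ± 0.354 to 10.8 ± 0.919 CPM (0.77, adjusted p = 0.0181). Ttc8, a subunit of the BBSome that carries membrane proteins into the cilium, rose from 9.47 ± 0.0711 to 15.1 ± 1.76 CPM (0.67, adjusted p = 0.0213).

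The genes that were called lower belong to the transition zone, the gate at the base of the cilium. Iqcb1 was at 27.9, 32.5 and 28.4 CPM in the controls and 22.4, 17.2 and 19.9 CPM in the mutants (-0.58, adjusted p = 0.0251, edgeR). Ahi1, which is also abundant in neurons, was at 591, 672 and 530 CPM and at 435, 370 and 489 CPM (-0.47, adjusted p = 0.0430). For these 6 genes, which were named for their calls, the groups did not overlap. Every mutant lay above every control for 23 of the 67 genes and below for 7, where all genes tested gave 19.6% and 18.7%. Of the 67 genes, 22 (32.8%) were highest in mutant mouse 1, and the median without that mouse was 0.13. By role, 5 of 21 genes of intraflagellar transport, 2 of 9 of the BBSome, 1 of 7 motors and 2 of 13 of the membrane and base were called higher, and 2 of 17 of the transition zone were called lower.

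The gene that shares the name CAPS2 did not show the fall of Caps2. Cadps2 (ENSMUSG00000017978) was at 44.2, 39.2 and 47.6 CPM in the controls and 42.7, 35.9 and 37.6 CPM in the mutants. The groups overlapped, and the log2 fold change was -0.17 with a standard error of 0.11 and a 95% interval of -0.42 to 0.08 (edgeR, adjusted p = 0.312). In the controls it was at 4.56 ± 0.44 CPM per kb, where Caps2 was at 0.424 ± 0.092 CPM per kb. Cadps (ENSMUSG00000054423), its paralog in the release of dense-core vesicles, was at 325, 374 and 321 CPM in the controls and 284, 307 and 362 CPM in the mutants (-0.10, adjusted p = 0.566). Capsl (ENSMUSG00000039676), a calcyphosine-like relative of Caps2, was at 2.01, 1.20 and 1.09 CPM and at 2.28, 0.655 and 0.742 CPM (-0.22, interval -1.40 to 0.97, adjusted p = 0.800). Capsl, which is also counted on the wider motile cilia list above, was highest in mutant mouse 1, and its wide interval leaves changes of either sign possible.

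**Figure D4:**
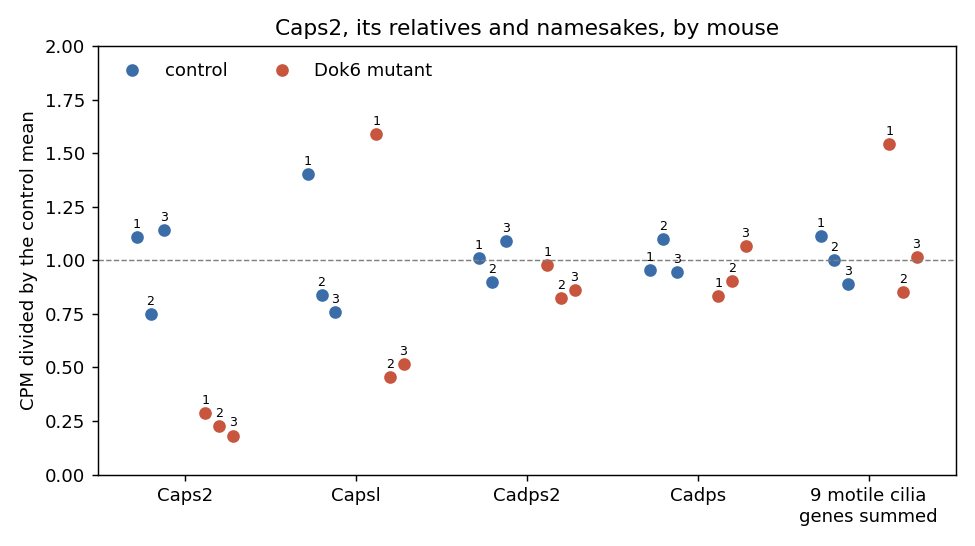
CPM in each mouse divided by the mean of the 3 controls, on a linear axis from 0, for Caps2, Capsl, Cadps2, Cadps and the sum of the 9 motile cilia genes, with points numbered by mouse. Caps2, which was chosen by its lower counts in the mutants, alone has all 3 mutants below all controls. Mutant mouse 1 is the highest library for Capsl and for the summed genes.

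Most annotated neighbours of Caps2 on chromosome 10 gave few or no reads. Of the 4 annotated genes with a row on each side, Gm6808, Gm15914, Gm48047, Gm47492 and 1700010J16Rik had no count in any library. Glipr1l3, whose start lies 21.9 kb to the left, had 3, 0 and 1 counts in the controls and 2, 2 and 1 in the mutants. Gm47419, annotated on the other strand across the end of Caps2, had 1 count in control mouse 3 alone. Kcnc2, a potassium channel gene whose start lies 107.5 kb to the right, was the only neighbour that could be compared, with 30.5, 35.4 and 34.9 CPM in the controls and 30.4, 30.9 and 30.2 CPM in the mutants. The groups overlapped, since mutant mouse 2 lay above control mouse 1, and the log2 fold change was -0.14 with a standard error of 0.10 (edgeR, adjusted p = 0.340).

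Likeness to the profile of Caps2 over the 6 libraries is in large part likeness to the genotype contrast by which Caps2 was chosen. Among 15676 genes with a mean of at least 1 CPM, Pcmtd2 and Sf3b5 (Pearson r 0.996 each), Ralgds (0.994), Atp5g2 (0.993) and Usp38 (0.991) came closest, with log2 fold changes from -0.10 to -0.45. These 5 genes are listed for their profile only. For the summed counts of the 9 genes, Cfap52 (0.993), Drc3 (0.992), Adamtsl1 (0.980), Sox1ot (0.978) and Cfap70 (0.978) came closest among 15667 genes. Cfap52, Drc3 and Cfap70 are genes of the axoneme. These r values are the highest of all genes compared over 6 libraries that differ in genotype, and they carry no test.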

How the data were processed

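RNA-seq counts of 6 libraries, 3 control and 3 Dok6 mutant mice, were used. The authors deposited raw counts of reads per gene, with no normalization. The submitters' processing notes name the build mm10, and the aligner, the counting tool and the use of strand are not given in the sources used here. The labels name the NEBNext Ultra RNA kit, and the methods its directional version. Columns were matched to samples by genotype and number.

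The test was that of edgeR 4.0.16 under R 4.3.3 (filterByExpr, TMM, glmQLFit and glmQLFTest on all 6 libraries, no block), with Benjamini-Hochberg adjustment over all 17099 genes tested and calls at an adjusted p under 0.05. Standard errors and 95% intervals follow from the test statistic. The procedure was tested on simulated data. The members and lists were chosen with earlier results of these data known. Named genes were the 10 members, Dok6, Capsl, Cadps and Cadps2, called genes of both cilia lists (the 4 of largest change where over 8 were called), the 6 motile cilia genes of highest mean CPM, the 4 neighbours on each side of Caps2, and the 5 genes of most similar profile. Stk36, Mns1, Ropn1l and Tekt4 of the motile cilia list and the markers Slc32a1 and Pax2 were named after their values were seen. Gene positions come from GENCODE M21 (GRCm38), where 54409 of the identifiers were found. BLAST 2.17.0 was used to find similar transcripts (at least 95% identity over 200 bases), and promoters come from RefSeq. Alternatives were leaving out each mouse, a replicate block, DESeq2 1.42.0, scaling by RLE or by the upper quartile, and either no filter or a minimum of 10 counts in every library. No 2 libraries of a genotype agreed within sampling noise. A further Schwann cell marker is not reported here.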

Additional observations from a re-analysis of the deposited data

How the results depend on the processing

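The log2 fold change of Caps2 was -1.95 to -2.27 under the 11 alternatives that gave one, and 0 of the 9 motile cilia genes were called under any alternative. Caps2 and Ccdc153 have no value with at least 10 counts in every library. For the wider motile cilia list the count called higher was 0, but 2 with DESeq2 (Stk36 and Mns1), 1 with no filter (Stk36) and 1 with at least 10 counts in every library (Mns1). Leaving out each mouse in turn gave 0 to 1 (Ropn1l, adjusted p = 0.0488 in edgeR, without mutant mouse 3). The same step moved the list's median from -0.08, without mutant mouse 1, to 0.36, and the median of the 9 genes from -0.08, without mutant mouse 1, to 0.50, without mutant mouse 2. It gave log2 fold changes of -0.17 to 0.50 for Foxj1, -0.07 to 0.78 for Rsph1, -0.27 to 0.39 for Rsph4a, -0.08 to 0.82 for Ccdc153, -0.32 to 0.24 for Tmem212, -0.21 to 0.03 for Ccdc39, -0.08 to 0.41 for Ccdc40, 0.08 to 0.64 for Dnah5 and 0.01 to 0.83 for Dnah12, the last pair lowest without mutant mouse 1. The sign changed without mutant mouse 1 for Foxj1, Rsph1, Rsph4a, Ccdc153 and Tmem212, without control mouse 3 for Ccdc40 and Tmem212, without control mouse 2 for Tmem212 and without mutant mouse 2 for Ccdc39. The cause was not tested. For the primary cilium list, the counts called under the alternatives were added after seeing the data. Leaving out each mouse gave 0 to 10 called higher and 0 to 3 lower. All genes tested gave 0.318% to 9.59% higher and 0.0682% to 7.08% lower. An absolute log2 fold change above 2 gave 0 and 0, beside 1.08% and 0.111% of all genes tested. The labels number the mice in each genotype, but same-numbered mice did not deviate together (r of -0.00781, -0.168 and -0.243), so the numbers were not read as pairs. With a replicate block Tmem212 was at -0.04, Caps2 at -2.08, and 0 motile cilia genes were called. The primary cilium list then had 0 called higher and 0 lower, beside 2.53% and 0.76% of all genes tested. Depth limits Caps2, Ccdc153 and Tmem212, with fewer than 50 counts in every library.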
